A study of Homo sapiens with 6 samples.

Results

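The insulin-like growth factor (IGF) family was followed in IMR90 (normal human diploid fibroblasts, derived from lung) as 10 genes. These were the ligands IGF1 and IGF2, the receptors IGF1R and IGF2R, and the binding proteins IGFBP2 to IGFBP7. They were chosen with earlier results of these data known. Each of the 10 symbols occurred in exactly 1 row of the deposited table, which holds 58219 genes. All cells carried ER-RAS, an oncogenic RAS protein fused to part of the oestrogen receptor that is switched on by 4-hydroxytamoxifen (4OHT), and all received 100 nM 4OHT, for 30 h (3 libraries, replicates A, B and C; labelled as uncommitted to senescence) or for 72 h (3 libraries, A, B and C; labelled as committed). The sample titles give the shorter time as 1.5 days. All 30 h libraries are labelled uncommitted and all 72 h libraries committed, so the length of RAS signalling and commitment to senescence cannot be told apart. No group without 4OHT was analysed here, so effects of RAS or 4OHT cannot be told apart from those of time in culture. The labels do not tell whether each replicate was its own culture. A p-value here therefore covers the spread of these libraries alone, which may be technical.

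IGF1 and IGF2 are secreted peptides that act through IGF1R, a receptor tyrosine kinase that recruits the adaptors IRS1 and IRS2 and so activates phosphoinositide 3-kinase (PI3K), AKT and mTOR. IGF2R, also the mannose 6-phosphate receptor, has no kinase and carries IGF2 to lysosomes for breakdown. The binding proteins hold IGFs outside the cell and release them when proteases such as pappalysin cut them. Several are known products of senescent fibroblasts.

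Of the 10 genes, 9 were abundant enough to be tested. IGFBP6, IGFBP7 and IGF1R fell between 30 h and 72 h, none rose, 6 did not pass the test, and IGF1 had almost no reads. Across all 13315 genes tested, 48.6% passed (23.6% rose and 25.0% fell; limma with Benjamini-Hochberg adjusted p under 0.05), so 3 of 9 does not set the family apart from other genes. The median log2 fold change was -0.21 over the 9 members and 0.01 over all tested genes. The count of members that rose was 0 also at an unadjusted p under 0.05, and by edgeR and DESeq2 on the recovered reads. It was not 0 in every alternative analysis. With quantile normalisation 1 member rose (IGF2R), with the replicate letter as a block 1 (IGFBP5), and without both libraries of replicate C 3. Of all genes 3501, 3271 and 3462 rose in these settings. In the 3 that fell the values of the 2 groups did not overlap, as for 29.9% of all tested genes (29.3% were higher without overlap); in the other 6 they overlapped.

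**Figure D1:**
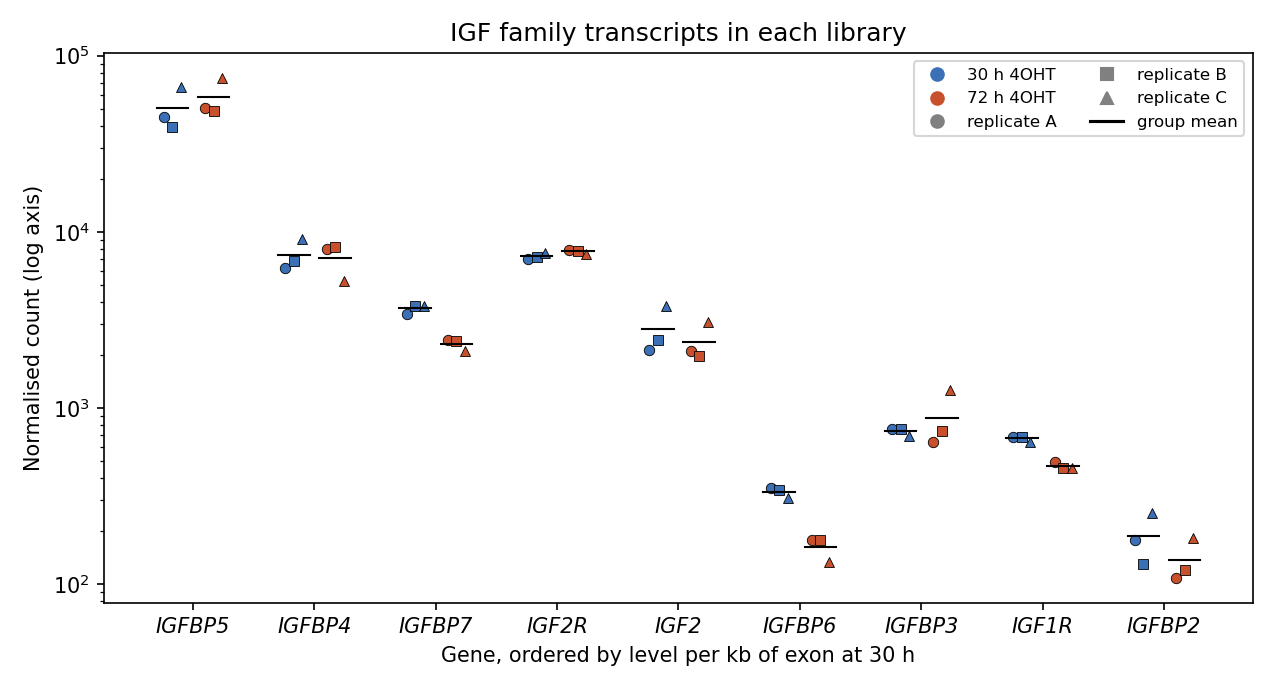
Normalised counts of the 9 tested members on a log axis, in each of the 6 libraries (colour gives the time, the symbol gives the replicate, the line is the group mean). IGFBP6, IGFBP7 and IGF1R are separated between the times, whereas for IGFBP2, IGFBP5 and IGF2 the replicate C library is the highest at both times.

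Depth ran from 13221152 to 15703544 reads assigned to genes per library. Both libraries of replicate C lay apart from A and B on the second principal component (7.0% of the variance, against 81.3% on the first, which separated the times), and the results below that change without them are given both ways. All 11 fibroblast markers examined were present at a mean of at least 50 normalised counts. Their summed level ran from 206822.5 to 222326 at 30 h and from 89610 to 105369 at 72 h; 6 of the 11 fell and 1 rose, and the part of this in the IGF results was not tested. No marker of epithelium, endothelium, blood or liver reached a mean of 50 (highest 14.4), and in each library the sums were at most 53.8, 35.7, 13.7 and 0. HRAS had 37555 ± 416 normalised counts at 30 h and 27310 ± 2784 at 72 h (SD, n = 3 each here and below; log2 fold change -0.46, adjusted p = 0.000702), and whether reads of the construct are among them was not tested.

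Levels per kilobase of exon rank the family with exon length divided out. The length is that of all annotated exons of a gene, not of the transcripts expressed, so the order is approximate. IGFBP5 was the highest at 30 h (7796 ± 2226 normalised counts per kb), followed by IGFBP4 (3361 ± 685), IGFBP7 (1907 ± 125), IGF2R (409 ± 15.7), IGF2 (401 ± 126), IGFBP6 (249.7 ± 17.1), IGFBP3 (162 ± 8.32), IGF1R (48.3 ± 1.74) and IGFBP2 (39.5 ± 13). The ranges of IGF2R and IGF2 overlapped, as did those of IGF1R and IGFBP2, at both times, whereas all other neighbours in the order were separated. At 72 h the order was the same except that IGFBP3 (193 ± 73.5) stood above IGFBP6 (122 ± 19.5). The family in these cells was thus led by IGFBP5, IGFBP4 and IGFBP7, and IGF2 was the ligand detected. Exon lengths came from GENCODE 29, in which the coordinates of IGF1, IGF1R and IGF2 differ from those of the deposited table, and IGF2R and IGFBP6 have the same coordinates under another version of the gene identifier, so the per-kb levels of these members are approximate.

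Promoter sequences are shown for the receptor that fell beside the one that did not, and for the 2 most abundant binding proteins. They are the 250 bases before the RefSeq start (GRCh38.p14), 5′ to 3′ on the gene's strand: chr15:98648289-98648538 (+) for IGF1R, chr6:159968832-159969081 (+) for IGF2R, chr2:216695550-216695799 (-) for IGFBP5 and chr17:40443200-40443449 (+) for IGFBP4. Capitals mark matches, on either strand, to TATAAA (the core of the TATA box), GGGCGG (called GC box), GTAAACA (called FOXO motif), TGANTCA (called AP-1 motif) or CACGTG (called E-box).
IGF1R: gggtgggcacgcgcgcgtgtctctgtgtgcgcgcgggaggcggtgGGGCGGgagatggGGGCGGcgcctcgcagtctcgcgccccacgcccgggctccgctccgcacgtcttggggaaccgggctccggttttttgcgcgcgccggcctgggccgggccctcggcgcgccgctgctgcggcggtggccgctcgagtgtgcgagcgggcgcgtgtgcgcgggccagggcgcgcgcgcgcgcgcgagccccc
IGF2R: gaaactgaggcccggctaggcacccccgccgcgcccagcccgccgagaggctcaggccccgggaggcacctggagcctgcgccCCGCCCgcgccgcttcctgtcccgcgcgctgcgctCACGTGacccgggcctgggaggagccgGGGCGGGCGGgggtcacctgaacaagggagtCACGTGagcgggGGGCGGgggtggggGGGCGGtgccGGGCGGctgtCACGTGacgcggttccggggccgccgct
IGFBP5: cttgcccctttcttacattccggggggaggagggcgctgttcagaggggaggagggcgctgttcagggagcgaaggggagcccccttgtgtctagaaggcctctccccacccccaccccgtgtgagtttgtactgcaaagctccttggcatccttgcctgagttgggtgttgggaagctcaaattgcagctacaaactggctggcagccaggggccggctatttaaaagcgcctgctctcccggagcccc
IGFBP4: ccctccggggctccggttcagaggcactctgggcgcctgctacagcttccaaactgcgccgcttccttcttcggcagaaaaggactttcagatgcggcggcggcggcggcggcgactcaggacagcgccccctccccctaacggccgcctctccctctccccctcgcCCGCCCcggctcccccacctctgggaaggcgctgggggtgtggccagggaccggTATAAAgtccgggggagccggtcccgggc

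Both receptor promoters were rich in G and C (81.2% for IGF1R and 79.2% for IGF2R, against a median of 58.0% over all 35116 windows of this length) and had no TATA box core. The IGF1R window held 2 GC boxes. The IGF2R window held 6 GC boxes, of which a pair overlapped, and 3 E-boxes. IGFBP4 had the TATA box core, beginning 29 bases before the start, and 1 GC box, and IGFBP5 had none of the 5 motifs. Only the strings given above were searched, so variants of a motif, such as other forms of the TATA box, were not counted. The IGFBP6 window, not printed because GENCODE 29 places 231 of its 250 bases in an annotated exon, held 1 FOXO motif and 1 GC box. Of all windows, 10.7% held the TATA box core, 42.6% a GC box, 2.98% the FOXO motif, 6.57% the AP-1 motif and 6.34% an E-box. Of the 10 members, 8 had a window in the RefSeq table; IGFBP7 and IGF2 had none.

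Among the ligands, IGF1 (chromosome 12, 102395867 to 102480645) had 1 read in the 30 h library B and 0 in each of the other 5. With 0 reads a library allows at most 3, that is 0.191 to 0.227 CPM (reads scaled to the total of the library), a limit for counting error only. Of the exonic bases of IGF1, 82.4% also lie in HELLPAR, a long non-coding RNA of the opposite strand with a mean of 20.2 normalised counts. Whether reads were counted by strand, and how reads in shared exons were assigned, is not stated in those sources that were used. The low count of IGF1 therefore does not show that its transcript was absent.

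IGF2 (chromosome 11, 2129112 to 2141238), an imprinted growth factor of fetal tissue, had 2149, 2443 and 3793 normalised counts in the 30 h libraries A, B and C and 2099, 1987 and 3081 in those of 72 h. Replicate C was the highest at both times, and the groups overlapped. The log2 fold change was -0.21 ± 0.28 (SE; 95% confidence interval -0.92 to 0.50) with adjusted p = 0.58, and the interval of the ratio of 72 h to 30 h ran from 0.529 to 1.41. Without 30 h replicate C it was 0.03, and without both C libraries -0.17 with adjusted p = 0.0301. In limma with the replicate letter as a block, the adjusted p of IGF2 was 0.0209 at the same log2 fold change. H19, the imprinted non-coding neighbour of IGF2, and the read-through transcript INS-IGF2 had 0 reads in all 6 libraries. Of the exonic bases of IGF2, 20.9% also belong to INS-IGF2 on the same strand. In the annotation used for exon lengths, a further entry named IGF2 shares 73.7%, also on the same strand. How reads in shared exons were assigned is not stated in those sources that were used. The 0 reads of INS-IGF2 therefore do not show its absence, and the effect on the IGF2 level was not tested.

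IGF1R (chromosome 15, 98648971 to 98964530) had 688, 687 and 645 normalised counts at 30 h and 498, 458 and 457 at 72 h. Every library of 72 h lay below every library of 30 h. The fall was 1.43-fold (log2 fold change -0.52 ± 0.07 SE, adjusted p = 0.000216). In bulk RNA, fewer cells expressing a gene and less RNA per cell cannot be told apart, for this and for every result here. IGF2R (chromosome 6, 159969099 to 160113507) had 7055, 7215 and 7600.3 normalised counts at 30 h and 7945, 7792.5 and 7510.2 at 72 h, with A and B higher at 72 h and C not. Its log2 fold change was 0.09 (95% confidence interval -0.03 to 0.21, adjusted p = 0.199), and 0.14 without both C libraries, with adjusted p = 0.0185. Per kb of exon, IGF2R stood 8.01, 8.21 and 9.20 times above IGF1R in the 30 h libraries and 12.5, 13.3 and 12.8 times at 72 h. This is 1 of 3 ratios examined after the values were seen (exact two-sided permutation p = 0.1 for each, also after adjustment over the 3, the smallest p that 3 against 3 libraries allow). The others were IGFBP5 over IGF2 and IGFBP4 over IGFBP7. Because the ratios were picked from the values, these p-values add no support.

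IGFBP6 (chromosome 12, 53097436 to 53102345), a binding protein that prefers IGF2, had 354, 344 and 310.0 normalised counts at 30 h and 179, 179 and 133 at 72 h. This was the largest change in the family, a 2.06-fold fall (log2 fold change -1.05 ± 0.13 SE, adjusted p = 0.000136). The 3 genes whose centred log2 profile over the 6 libraries was nearest to that of IGFBP6, among 10551 compared, were FBXO5, an inhibitor of the anaphase-promoting complex, ADAM9, a membrane metalloprotease, and FIGN, an ATPase that severs microtubules, with root mean square differences of 0.0479, 0.0496 and 0.0562 (log2).

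IGFBP7 (chromosome 4, 57030773 to 57110385), a secreted protein of low IGF affinity, had 3403, 3823 and 3818 normalised counts at 30 h and 2452, 2390.0 and 2117 at 72 h. The groups were apart, and the fall was 1.59-fold (log2 fold change -0.67 ± 0.07 SE, adjusted p = 6.26e-05). Of its exonic bases 14.0% overlap POLR2B on the opposite strand. POLR2B, an RNA polymerase II subunit, had 2887 ± 31.8 normalised counts at 30 h and 3039 ± 42.7 at 72 h, with a log2 fold change of 0.07 and adjusted p = 0.224.

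The calls for IGFBP6, IGFBP7 and IGF1R held in all 19 alternative analyses of each, including those without both C libraries.

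**Figure D2:**
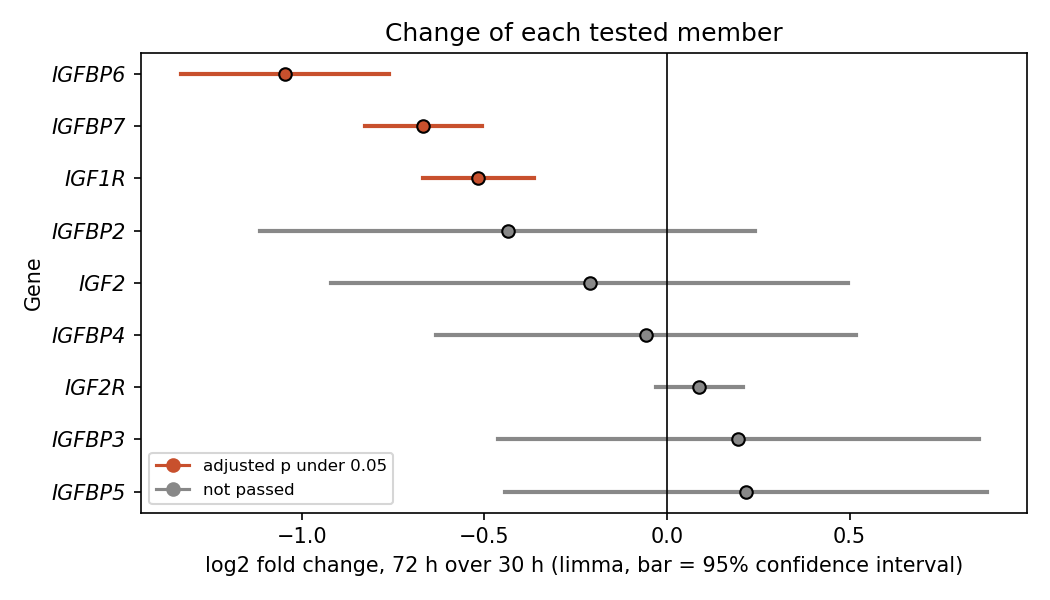
Log2 fold change of each tested member (72 h over 30 h, point) with its 95% confidence interval (bar) from limma. IGFBP6, IGFBP7 and IGF1R lie wholly below 0, and the intervals of the other 6 members include 0.

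IGFBP5 (chromosome 2, 216672105 to 216695525), a matrix-bound binding protein, was the most abundant member. It had 44987, 39236 and 66446 normalised counts at 30 h and 50703, 48624 and 74735 at 72 h. Replicate C was the highest at each time (1.58 and 1.50 times the mean of A and B), and the groups overlapped. The log2 fold change was 0.22 (95% confidence interval -0.44 to 0.88, adjusted p = 0.541). It was 0.02 without 72 h replicate C, 0.06 without 30 h replicate B, 0.33 without 72 h replicate B and 0.44 without 30 h replicate C (adjusted p = 0.956, 0.885, 0.404 and 0.204). Without both C libraries it was 0.24 with adjusted p = 0.00228. In limma with the replicate letter as a block, the adjusted p of IGFBP5 was 0.018 at the same log2 fold change. IGFBP2 (chromosome 2, 216632828 to 216664436), the neighbour of IGFBP5, with 7668 bases between them, stood with IGF1R at the low end of the tested members per kb. It had 179, 131 and 254 normalised counts at 30 h and 109, 120.3 and 183 at 72 h, again with C the highest at both times. The log2 fold change was -0.44 (95% confidence interval -1.11 to 0.24, adjusted p = 0.251), and -0.42 without both C libraries, with adjusted p = 0.0295. It was -0.19 without 30 h replicate C, -0.29 without 72 h replicate A, -0.67 without 30 h replicate B and -0.66 without 72 h replicate C (adjusted p = 0.546, 0.509, 0.0745 and 0.0776). In limma with the replicate letter as a block, the adjusted p of IGFBP2 was 0.0224 at the same log2 fold change as in the main test. A library of replicate C was the highest at both times for 3 of the 9 members (IGFBP2, IGFBP5 and IGF2) and for 17.2% of all tested genes.

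IGFBP4 (chromosome 17, 40443461 to 40457731), an inhibitor of IGF action, did not move one way. It had 6221, 6867 and 9095 normalised counts at 30 h and 7985, 8175 and 5274 at 72 h, so replicate C was the highest library at 30 h and the lowest at 72 h. The log2 fold change was -0.06 (95% confidence interval -0.63 to 0.52, adjusted p = 0.859), but without both C libraries it was 0.31 with adjusted p = 5.86e-05, and it was 0.10 without 30 h replicate C and 0.15 without 72 h replicate C (adjusted p = 0.77 and 0.522). IGFBP3 (chromosome 7, 45912245 to 45921874), the main IGF carrier of serum, had 758, 763 and 695 normalised counts at 30 h and 643, 742 and 1268 at 72 h. At 72 h its A and B libraries lay slightly below the A and B libraries of 30 h, though B lay above 30 h replicate C. Its C library of 72 h lay far above every library of 30 h. The log2 fold change was 0.20 (95% confidence interval -0.46 to 0.85, adjusted p = 0.582), and -0.10 without 72 h replicate C (adjusted p = 0.376). Without both C libraries 3 members rose (IGFBP4, IGFBP5 and IGF2R) and 5 fell (IGFBP2 and IGF2 besides the 3 above), with 2 libraries per group, while 3462 of all genes rose and 3619 fell there. This alternative was added after the data were seen.

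The summed level of the 6 binding proteins was 12041, 11643 and 16862 normalised counts per kb in the 30 h libraries and 13067, 12822.5 and 15509.7 at 72 h, so the groups overlapped. IGFBP5 made up 57.2% ± 4.49 of this sum at 30 h and 64.6% ± 8.83 at 72 h (SD, n = 3 per group). IGFBP4 made up 24.9% ± 1.70 and 24.1% ± 7.48. IGFBP7 went from 14.6%, 17% and 11.7% in the 30 h libraries to 9.72%, 9.66% and 7.07%, and IGFBP6 from 1.92% ± 0.476 to 0.897% ± 0.224. These shares are a description and were not tested.

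**Figure D3:**
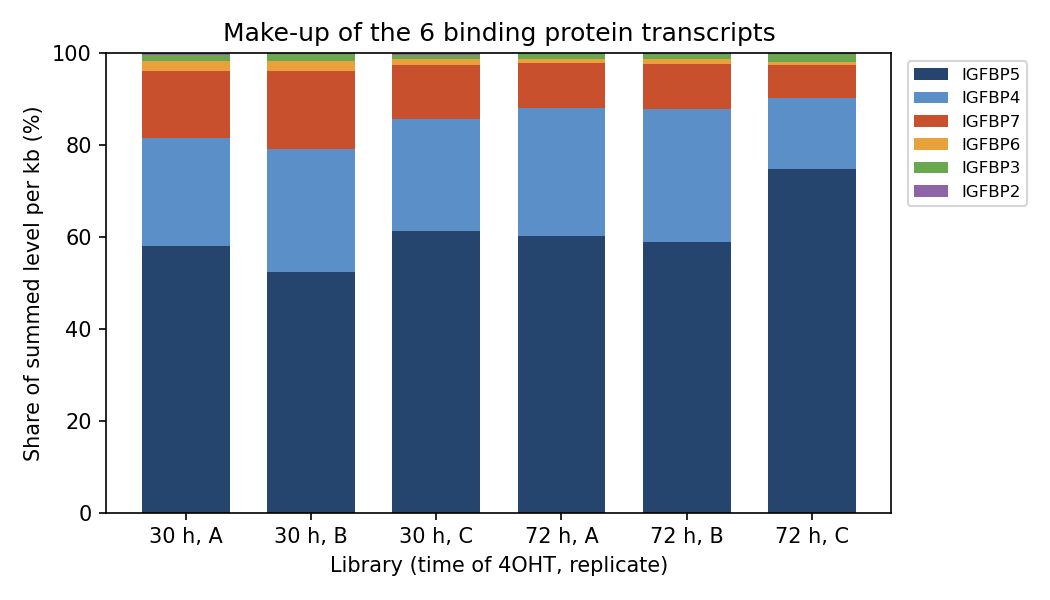
Share of each of the 6 binding proteins in their summed level per kb of exon (%), 1 bar per library. IGFBP5, IGFBP4 and IGFBP7 make up nearly the whole in each library, and the IGFBP7 band is thinner in the 3 libraries of 72 h (7.07% to 9.72%) than in those of 30 h (11.7% to 17%).

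Proteases that cut binding proteins, and regulators of those proteases, rose in part and fell in part. Of 20 listed genes 14 were tested, of which 6 rose, 6 fell and 2 did not pass (85.7% called, against 48.6% of all tested genes; median absolute log2 fold change 0.73 against 0.28), and the list had been chosen with earlier results of these data known. PAPPA, the gene of pappalysin 1, which cuts IGFBP4 and IGFBP5, had 743, 962 and 1005 normalised counts at 30 h and 6256, 5227 and 7556 at 72 h. The groups were far apart, with a 7.0-fold rise (log2 fold change 2.81 ± 0.17 SE, adjusted p = 5.85e-05). Of the exonic bases of PAPPA 21.2% overlap PAPPA-AS1 on the opposite strand, which had a mean of 8.13 normalised counts. STC1 and STC2 encode stanniocalcins, inhibitors of pappalysins. STC1 had 62239 ± 5530 normalised counts at 30 h and 72485 ± 3177 at 72 h, with a log2 fold change of 0.22 (adjusted p = 0.0327), a call lost without 30 h replicates A or B or 72 h replicates A or B (adjusted p = 0.141, 0.11, 0.131 and 0.0523), by edgeR (0.0697), by limma without trend and robust fitting (0.0795) and with quantile normalisation, where the value was 0.06 (0.679). STC2 had 4715 ± 529 and 3015 ± 697, with a log2 fold change of -0.67 (adjusted p = 0.03), a call lost without 30 h replicates B or C or 72 h replicate A (adjusted p = 0.0787, 0.121 and 0.0528) and without a filter on low values (0.131). With the replicate letter as a block its adjusted p was 0.0984.

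Of the other proteases, MMP3 (stromelysin 1) rose 13.4-fold, from 8387 ± 4683 to 104015 ± 27956 normalised counts, ADAM12, which also cuts binding proteins, 2.93-fold, and MMP1 (interstitial collagenase) 1.95-fold. ADAM9 fell 2.10-fold, from 8861 ± 627 to 4226 ± 469. PLAT, the tissue plasminogen activator, fell 4.2-fold. Adjusted p was 0.00165, 0.00797 and 4.45e-05 for the 3 that rose and 1.75e-05 and 0.00186 for ADAM9 and PLAT. PAPPA2, the other pappalysin, had too few reads to test, at 0.68 and 4.79 normalised counts on average.

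**Figure D4:**
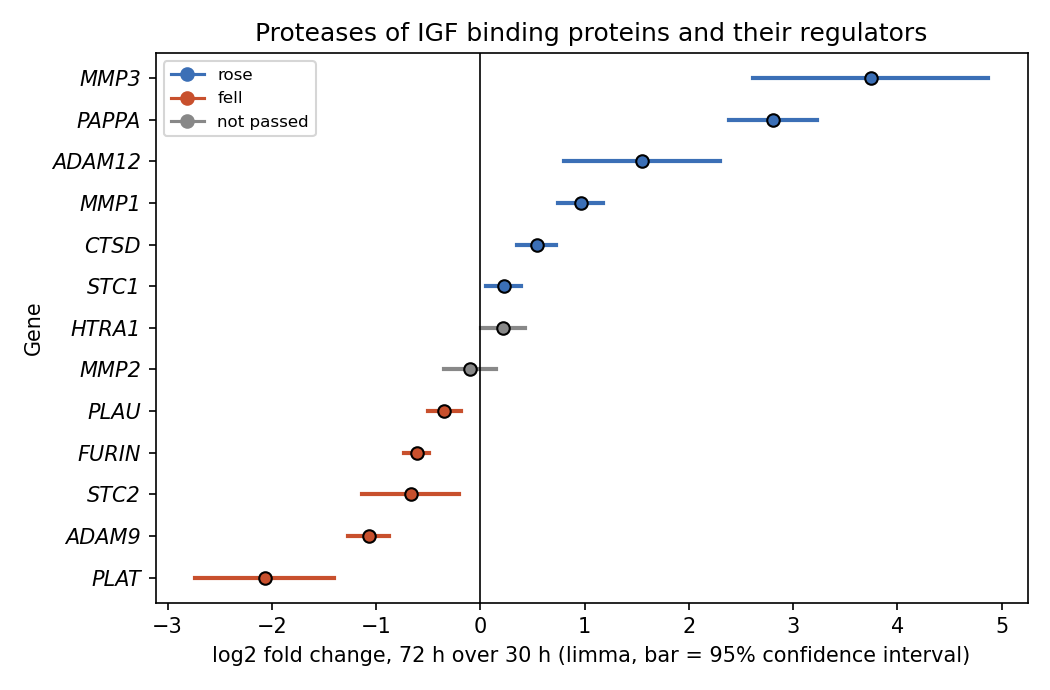
Log2 fold change (72 h over 30 h, point) and 95% confidence interval (bar, limma) of the tested genes for proteases of IGF binding proteins and their regulators (1 not shown). MMP3 and PAPPA lie furthest to the right and PLAT furthest to the left.

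Taking both directions together, genes of the pathway inside the cell passed the main test about as often as genes in general. Of 33 listed, 30 were tested, of which 11 rose, 4 fell and 15 did not pass. Among all tested genes 23.6% rose and 25.0% fell, 48.6% called in all. The median absolute log2 fold change of the list was 0.19. Over the alternative analyses its count called ran from 10 (limma without trend and robust fitting) to 18 (quantile normalisation), against 15 here. Of all 13315 tested genes, 2878 rose and 3117 fell in the former setting, and 3501 rose and 3095 fell in the latter. How often the list passed beside genes in general thus depended on the setting. The list had been chosen with earlier results of these data known. IRS2, an adaptor of IGF1R and the insulin receptor, had 266, 334 and 343 normalised counts at 30 h and 642, 574 and 726 at 72 h, without overlap, a 2.06-fold rise (adjusted p = 0.000107). IRS1, its relative, had 1541 ± 61.0 and 1465 ± 139, with a log2 fold change of -0.08 (95% confidence interval -0.24 to 0.08, adjusted p = 0.409). PIK3R1, a regulatory subunit of PI3K, rose 1.82-fold, FOXO3, a transcription factor held out of the nucleus by AKT, 1.45-fold, AKT1S1, an inhibitory partner of mTOR, 1.41-fold, and MLST8, a subunit of the mTOR complexes, 1.34-fold (adjusted p = 0.000153, 0.000606, 7.01e-05 and 0.00128 in that order). RHEB, the activator of mTOR complex 1, fell 1.41-fold, and EIF4EBP1, a translation repressor that mTOR inactivates, fell 1.38-fold (adjusted p = 0.000556 and 0.00211). INSR, the insulin receptor and closest relative of IGF1R, had 141 ± 8.30 normalised counts at 30 h and 176 ± 25.7 at 72 h, higher in each of the 72 h libraries than in any of 30 h, with a log2 fold change of 0.31 and adjusted p = 0.0707. That value was 0.42 with adjusted p = 0.017 without 72 h replicate C, and 0.44 with adjusted p = 0.00688 without both C libraries. PIK3R2 had under 1 normalised count on average in each group, and 87.2% of its exonic bases also belong to AC007192.1 on the same strand, which had 0 reads.

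Relatives of the binding proteins and regulators of IGF2 RNA were lower or did not pass. Of 22 listed, 10 were tested, of which 0 rose, 6 fell and 4 did not pass, against 23.6% that rose and 25.0% that fell among all tested genes. The median log2 fold change was -0.93, against 0.01 over all tested genes. As with the other lists, the choice was made with earlier results of these data known. The count of risers was 0 also at an unadjusted p under 0.05 in limma, edgeR and DESeq2. CTGF, CYR61 and NOV, matricellular proteins that share the IGFBP-type domain, fell 6.10-fold, 3.90-fold and 1.81-fold (adjusted p = 2.78e-05, 0.000196 and 0.0353). CRIM1, a membrane protein with the same domain, fell 3.90-fold, from 6450.3 ± 881 to 1645 ± 122 normalised counts (adjusted p = 3.22e-06). The call for NOV was lost without 30 h replicates A, B or C or 72 h replicate A (adjusted p = 0.0569, 0.1, 0.114 and 0.0571). IGF2BP2, which binds IGF2 messenger RNA, had 1677, 1757 and 1678 normalised counts at 30 h and 924, 866 and 769.9 at 72 h, a 2.00-fold fall (adjusted p = 5.19e-06). Its relative IGF2BP3, which shares 17.9% of its exonic bases with MALSU1 on the opposite strand, had 2611 ± 227 and 2323 ± 250.4, with a log2 fold change of -0.17 and adjusted p = 0.14 (-0.26 and 0.0176 without 72 h replicate C, and -0.32 and 8.27e-05 without both C libraries). IGFBP1, the remaining classical binding protein and the neighbour of IGFBP3, had 0, 5.08 and 8.44 normalised counts at 30 h and 6.13, 7.85 and 7.34 at 72 h, too few to test.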

How the data were processed

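Polyadenylated RNA of 6 libraries was made with a KAPA mRNA kit, per the labels' protocols. Per the submitters' processing notes, Trimmomatic 0.35, STAR 2.5.1b, GRCh38 (hg38) and DESeq2 1.18.1 were used; the read counter, its annotation and whether it used strand are not stated in these sources. The deposited signal values are read counts that the authors divided by 1 size factor per library (0.948 to 1.15). In each library 100% of values were whole multiples, within 0.01, of the smallest value above 0, which gave back the reads. Log2 fold changes, p-values and a test score of the authors are further columns, per the file headers, and served only as an alternative. Other per-sample columns left out numbered 0.

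Replicates differed by more than sampling noise (chi-square per degree of freedom 3.34 to 16.3 within groups, 109.7 to 161 between), so each counts once. The test was limma 3.58.1 (trend, robust; R 4.3.3), on genes reaching 10 normalised counts in 3 or more libraries, of log2(value + 1), 72 h minus 30 h, adjusted by Benjamini-Hochberg over all tested genes, threshold 0.05; folds are on that scale, which understates low genes. The steps were tested on simulated counts in which a far smaller share of genes changed than was called here. The error rate at the share called here was therefore not checked. edgeR 4.0.16 called 3143 higher and 3340 lower on the recovered reads, against 3144 and 3328 by limma. Fewer were called by DESeq2 1.42.0 (2632 higher and 2889 lower) and by limma without trend and robust fitting (2878 and 3117). Values per kb use exon lengths of GENCODE 29. The members, lists and tests were chosen with earlier results of these data known. All 10 members are named; of each context list, up to 8 called genes, by size of change, whose larger group mean reached 50, besides 10 fixed genes (INSR, IRS1, IRS2, PAPPA, STC1, STC2, IGFBP1, IGF2BP2, IGF2BP3, H19). 2 genes that this rule picks are not reported here. The 3 tested genes nearest in profile to the member with the largest called fall are named too. PAPPA2, PIK3R2, INS-IGF2, POLR2B and HELLPAR were named after their values were seen.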

Additional observations from a re-analysis of the deposited data

How the results depend on the processing

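Over 19 alternative settings, 18 of them planned, IGFBP6 (log2 fold change -1.12 to -0.91), IGFBP7 (-0.72 to -0.58) and IGF1R (-0.56 to -0.49) kept direction and call. The 25 genes followed from the other lists gave 475 values, of which 451 kept both, 18 lost the call, 6 gained it and 0 changed direction. Replicate letters were not treated as pairs in the main test. Over all tested genes, the correlation of same-lettered libraries after removal of group means was 0.00696 (A), 0.172 (B) and 0.185 (C). For single members the letter can matter more. Replicate C stood at 1.64 and 1.59 times the mean of A and B for IGFBP2 at 30 h and 72 h. The values were 1.58 and 1.5 for IGFBP5 and 1.65 and 1.51 for IGF2. With the replicate letter as a block, 1 member rose and 5 fell (3271 and 3452 of all genes): IGFBP5 at 0.22 (adjusted p = 0.018), and IGFBP2 at -0.44 and IGF2 at -0.21 joined those that fell. Without both C libraries 3 rose and 5 fell (3462 and 3619 of all genes), with IGFBP2 at -0.42, IGFBP3 at -0.14, IGFBP4 at 0.31, IGFBP5 at 0.24, IGF2 at -0.17 and IGF2R at 0.14. With quantile normalisation 1 member rose, IGF2R at 0.17 (adjusted p = 0.0212), and IGFBP4 was at 0.03; the median of all genes was 0.03 there. IGFBP2 passed without a filter on low values, at -0.44 in limma and -0.46 in edgeR. Leaving out 1 library at a time gave -0.17 to 0.15 for IGFBP4, -0.41 to 0.03 for IGF2, -0.10 to 0.39 for IGFBP3, -0.67 to -0.19 for IGFBP2 and 0.02 to 0.44 for IGFBP5, where the sign turned without 30 h C for IGFBP4 (0.10) and IGF2 (0.031) and without 72 h C for IGFBP4 (0.15) and IGFBP3 (-0.10). The cause of these changes was not tested. IGF1 and other genes under about 10 counts are limited by depth.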
